A study of Mus musculus with 24 samples.

Results

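The Zic genes Zic1, Zic2, Zic4 and Zic5 and the homeobox gene Nkx6-1, 5 of the 21948 protein-coding genes used, were followed across 24 libraries of sorted mouse skeletal cells. They were picked by gene symbol, and the choice was made with their higher levels in vertebral GFP+ cells already known. Differences by GFP and by skeletal site are therefore given as descriptions with no test, and so is every difference of Nkx6-1. The Zic genes were tested for differences by EMB alone. Whether their levels by EMB were also known at the choice is not recorded, so these p-values may not be free of it. Of the 5 genes, Zic1, Zic4 and Nkx6-1 passed the filter of the test across genes, a level of 1 FPKM in 4 libraries. Zic2 and Zic5 did not.

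Zic proteins are zinc finger transcription factors related to the Gli factors of Hedgehog signalling. They act in the dorsal neural tube, the somites and the axial skeleton, and mice without Zic1 have malformed vertebral arches. Nkx6-1 is a homeodomain factor best known from the ventral neural tube and the insulin-producing cells of the pancreas.

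All libraries came from male mice on postnatal day 10 and from the gate of CD45-, Ter119-, CD31-, Thy1- and 6C3- cells that were CD200+ and CD105-, a gate used for skeletal stem cells. Vertebral cells were sorted by GFP and by EMB (embigin, a surface glycoprotein) into 4 groups, and cells of long bone by EMB alone into 2 further groups, with 4 libraries in each. GFP marks the lineage of Zic1: the series names GFP+ cells as positive and all long bone cells as negative for Zic1-Cre, a Cre recombinase driven from Zic1, while the genotype label reads WT in all 24 libraries. The labels do not name the reporter allele. Titles call the replicates biological and say nothing of separate animals. A p-value thus sets a difference against the spread among libraries within groups, which may be technical. In the test across genes that spread was pooled over all 6 groups.

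Levels are given in FPKM, the deposited unit, which scales fragment counts by transcript length and library size. The smallest steps between low values put the depth at about 19500000 to 28700000 fragments per library, an estimate that covers counting error only. Emb RNA followed the sort: it was 44.4 to 55.3 FPKM in vertebral GFP- EMB+ libraries, whose titles give a different sort from their cell type labels, and at most 1.32 in any EMB- library. Of the cartilage markers, Col2a1 averaged 27466 FPKM or more in every group, while Matn1 averaged 4.93 to 40.1 in vertebral groups and 404.8 and 541.2 in long bone. The 6 limb markers summed to at most 5.62 FPKM in vertebral and to 42.8 or more in long bone libraries, mostly through Pitx1, a hindlimb factor (at most 0.0267 against 32.2 and 43.7), and Hoxd11 of that list was not higher in long bone (0.151 to 0.548 against 0.0624 and 0.437). Long bone EMB- replicate 4 stood apart, with a lowest correlation of 0.925 with its group against 0.978 or more within the other 5 groups.

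These Zic genes lie as pairs that point away from each other. On GRCm38, Zic1 (ENSMUSG00000032368, chromosome 9, 91358058 to 91365810, minus strand) and Zic4 (ENSMUSG00000036972, chromosome 9, 91362413 to 91389348, plus strand) share a span of 3398 bases. Their RefSeq start sites are 3204 bases apart. Only 60 exonic bases are shared, through 1 of 12 annotated Zic4 transcripts, which is 1.05% of the exonic bases of Zic1 and 0.581% of those of Zic4. The library kit did not mark strand, so reads from these bases could not be told apart. Zic5 (ENSMUSG00000041703, chromosome 14, 122456795 to 122465677, minus strand) and Zic2 (ENSMUSG00000061524, chromosome 14, 122475435 to 122479852, plus strand) lie 9757 bases apart with no overlap. Nkx6-1 (ENSMUSG00000035187) lies on chromosome 5, 101658139 to 101664996, minus strand.

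**Figure D1:**
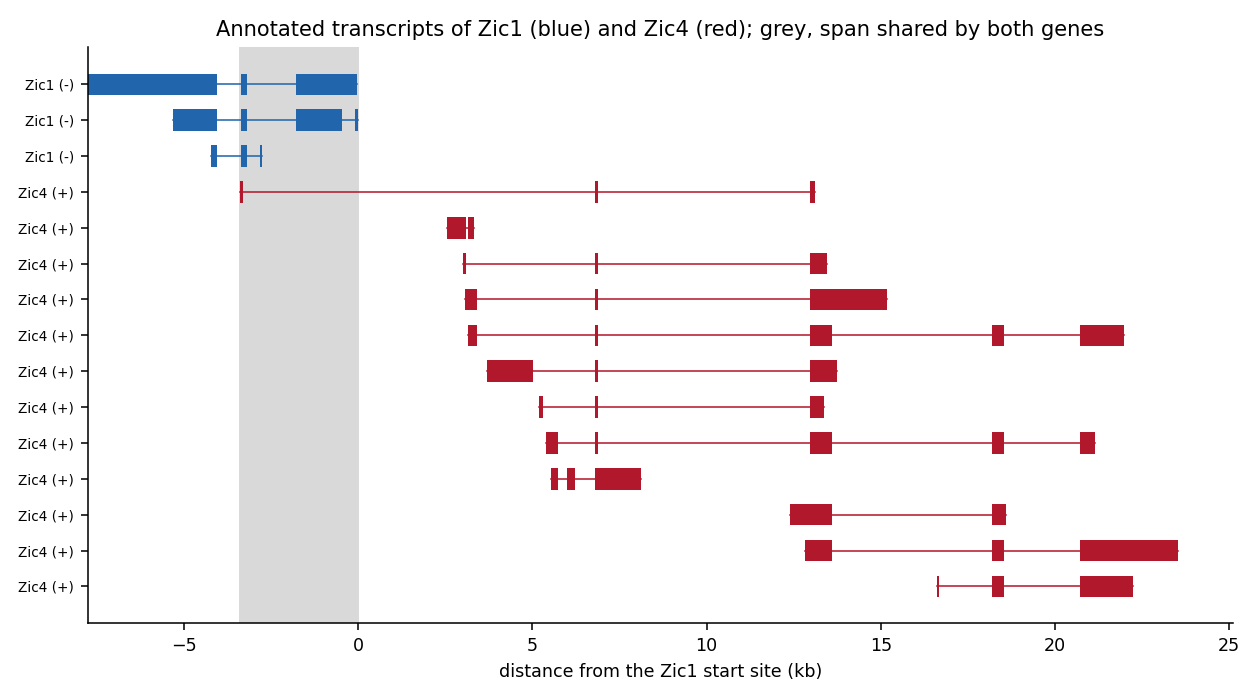
Annotated transcripts of Zic1 (blue, minus strand) and Zic4 (red, plus strand), with distance from the Zic1 start site in kb on the x axis, exons as boxes and introns as lines. The grey band is the span of 3398 bases that both genes cover, and 1 of 12 Zic4 transcripts starts inside it.

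The stretches of 250 bases before the start sites are shown for Zic1 and Zic4, the pair that varied together most closely, and for Nkx6-1, as given by RefSeq on GRCm38.p6. Capitals mark the letters CCAAT, searched on both strands. The windows are chr9:91365769-91366018 (minus strand), chr9:91368722-91368971 (plus strand) and chr5:101664712-101664961 (minus strand).
Zic1: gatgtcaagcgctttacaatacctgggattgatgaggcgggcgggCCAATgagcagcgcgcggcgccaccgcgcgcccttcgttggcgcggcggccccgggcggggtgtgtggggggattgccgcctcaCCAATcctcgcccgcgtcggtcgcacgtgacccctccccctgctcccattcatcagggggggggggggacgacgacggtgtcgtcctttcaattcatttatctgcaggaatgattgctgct
Zic4: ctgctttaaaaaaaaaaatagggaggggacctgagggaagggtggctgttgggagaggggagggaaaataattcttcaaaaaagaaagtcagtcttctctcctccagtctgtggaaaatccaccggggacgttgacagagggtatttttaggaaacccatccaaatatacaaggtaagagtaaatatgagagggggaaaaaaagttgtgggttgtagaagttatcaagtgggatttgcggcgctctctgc
Nkx6-1: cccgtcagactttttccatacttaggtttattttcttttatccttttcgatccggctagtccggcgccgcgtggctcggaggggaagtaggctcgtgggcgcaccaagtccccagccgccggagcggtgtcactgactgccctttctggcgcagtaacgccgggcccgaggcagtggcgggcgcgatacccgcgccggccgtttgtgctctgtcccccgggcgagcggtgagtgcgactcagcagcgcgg

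The 2 promoters of the Zic1 and Zic4 pair differed in makeup. That of Zic1 was 66.0% G and C with 27 CpG sites, 0.995 of the number expected from its base composition, a ratio above that of 94.0% of 32851 promoters. That of Zic4 was 44.4% G and C with 4 CpG sites and a ratio of 0.376, close to the median of all promoters (0.373). Nkx6-1 resembled Zic1, with 65.2% G and C, 30 CpG sites and a ratio of 1.13. The promoter of Zic5 (chr14:122465659-122465908), the other Zic gene in the RefSeq table, had 11 CpG sites and a ratio of 0.458. Zic1 held CCAAT at 205 and 121 bases before its start, and the other 3 windows held none, while 33.8% of all promoters did. None of the 4 windows held the Zic core CCTGCTG on either strand, which 8.44% of all promoters of this length hold. The same was true of the Gli core GGGTGGTC (0.703% of promoters). The homeobox core written TAATTA (4.84%) was not there either, nor was the TATA box, searched by the letters TATAAA (12.4%). Matches and their lack are descriptions of letters in these windows.

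Zic1, whose Cre marks the lineage, was low and followed GFP. In vertebral GFP+ EMB+ cells its level was 1.51, 2.39, 1.62 and 1.97 FPKM in replicates 1 to 4, and in GFP+ EMB- cells it was 0.349, 0.841, 1.39 and 0.729. In GFP- EMB+ cells it was 0.0101, 0.0480, 0 and 0.108, and in GFP- EMB- cells 0, 0.0647, 0.0203 and 0. In long bone all 8 libraries were listed at 0, where 3 fragments would have given 0.0202 to 0.0218 FPKM. Every GFP+ library was above every GFP- and long bone library. These levels rest on about 902 fragments over the 4 GFP+ EMB+ libraries, 440 over the 4 GFP+ EMB- libraries, and 23 and 12 over the GFP- groups.

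On the mean, Zic1 was 45.2 times as high in GFP+ as in GFP- cells among EMB+ cells and 39.0 times as high among EMB- cells, both ratios resting on few fragments in GFP- cells. The difference in log2(FPKM + 1), a scale that understates the change of low genes, was 1.46 (SE 0.14) and 0.81 (SE 0.14). In bulk libraries such as these, fewer cells with a transcript and less RNA per cell cannot be told apart.

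Zic4, the neighbour of Zic1, was the most abundant of the 4 Zic genes per length by the mean of each GFP+ group. In vertebral GFP+ EMB+ cells its level was 5.95, 4.13, 6.42 and 5.82 FPKM, and in GFP+ EMB- cells 1.50, 0.797, 1.47 and 1.12. In GFP- EMB+ cells 3 libraries were listed at 0 and replicate 4 at 2.84e-08, far below the 0.0112 FPKM that 1 fragment was worth. In GFP- EMB- cells 3 libraries were at 0 and replicate 2 at 0.296 FPKM, about 30 fragments. All 8 long bone libraries were listed at 0, where 3 fragments would have given 0.0291 to 0.0315 FPKM. The GFP+ libraries were again above all others. The log2(FPKM + 1) difference between GFP+ and GFP- cells was 2.70 (SE 0.13) for EMB+ and 1.05 (SE 0.13) for EMB- cells. The ratio of means among EMB- cells was 16.5, below the 39.0 of Zic1, and rests on the 1 GFP- library above 0.

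**Figure D2:**
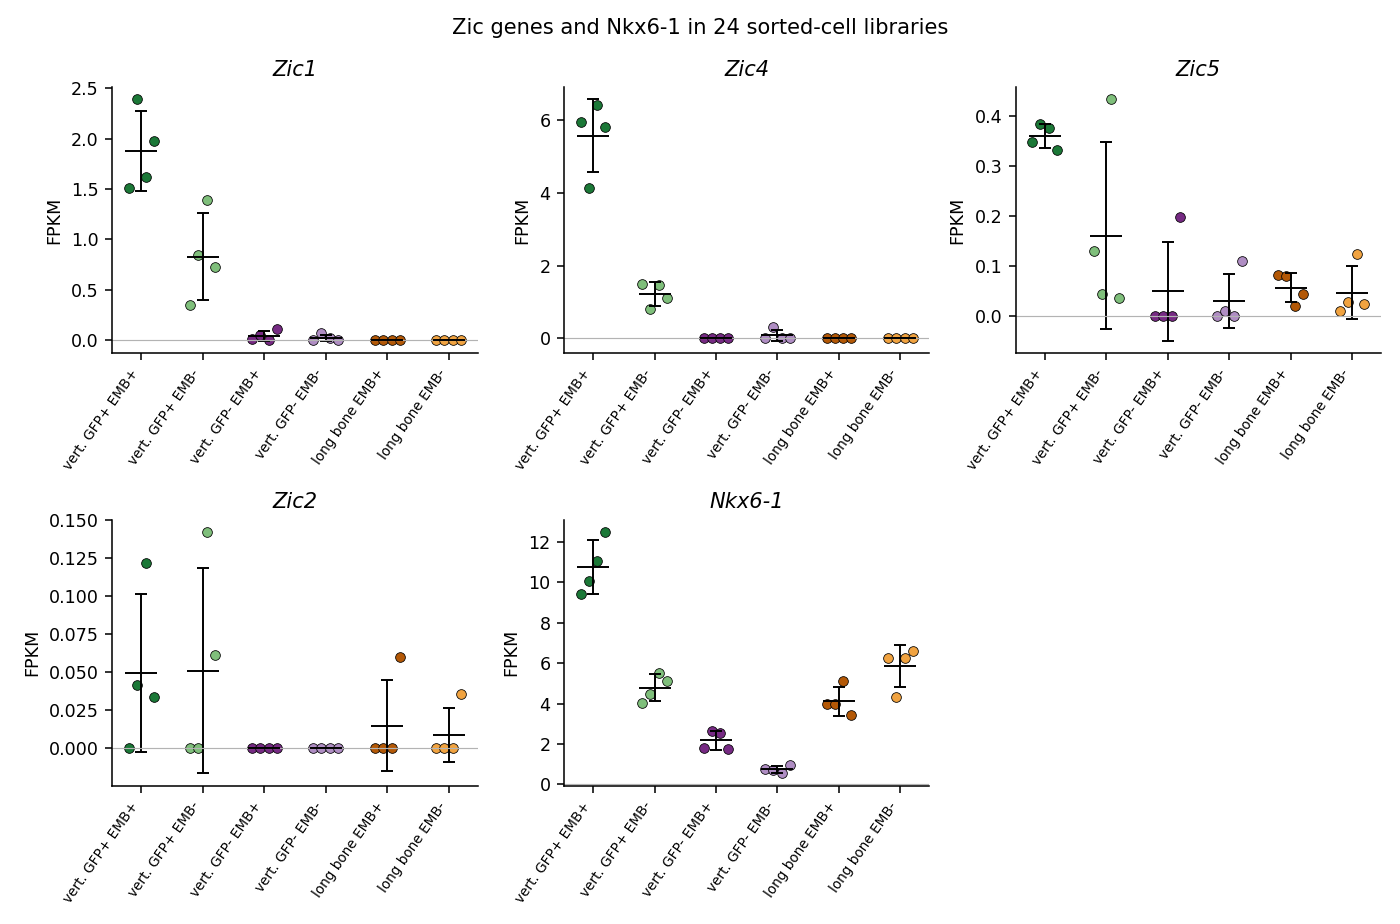
FPKM of the 5 genes (y axis, a scale of its own in each panel) in 4 libraries of each of 6 groups (x axis), with each point a library, the horizontal line the mean and the bar 1 SD. Zic1 and Zic4 are above 0.3 FPKM only in the vertebral GFP+ groups, and Nkx6-1 is above 0 in all 24 libraries.

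Within the GFP+ lineage, Zic1 and Zic4 RNA was higher in EMB+ than in EMB- cells. The mean FPKM ratio was 2.26 for Zic1 (1.87 ± 0.396 against 0.827 ± 0.430, SD, n = 4 each) and 4.57 for Zic4 (5.58 ± 0.998 against 1.22 ± 0.331). The groups did not overlap for either gene, though the highest EMB- value of Zic1 (1.39) came close to the lowest EMB+ value (1.51). Zic1 rose by 0.67 on the log2(FPKM + 1) scale (SE 0.14, adjusted p = 2.8e-04) and Zic4 by 1.57 (SE 0.13, adjusted p = 8.1e-10) in limma's test with Benjamini-Hochberg adjustment over 11767 genes. The exact two-sided permutation test over the 8 libraries gave p = 0.0286 for each gene, the smallest it can give. Zic1 passed the filter through the 4 GFP+ EMB+ libraries and 1 EMB- library. Zic4 passed it through 7 GFP+ libraries, the 4 EMB+ libraries among them. Neither would have passed without those 4, so the filter itself favours the group where both are high. Without the filter limma gave the same differences (adjusted p = 8.7e-05 for Zic1 and 9.4e-10 for Zic4).

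Many genes differed the same way in that comparison. Of 11767 genes tested, 42.1% were higher and 7.85% lower in GFP+ EMB+ cells, with a median difference of 0.32. After median-ratio scaling, which set that median to 0.01, 1523 genes were higher and 1725 lower instead of 4959 and 924. Zic1 then rose by 0.47 (adjusted p = 0.0147, limma) and Zic4 by 1.31 (adjusted p = 2.1e-08).

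Markers of other cells did not all keep one level between these groups. Of 6 neuron markers, summing to 0.0220 to 0.740 FPKM in EMB+ and 0.168 to 0.388 in EMB- libraries, 2 and 3 were at 0 in all 4 libraries, Elavl3 and Snap25 among them in both groups. The 6 neural progenitor markers summed to 5.91 to 7.31 against 0.907 to 3.22, above the level of Zic1 and higher with EMB as Zic1 was. Most of the EMB+ sum was Fabp7 (5.50 and 0.747 FPKM, difference 1.96, adjusted p = 1.5e-07, limma). Nes averaged lower with EMB and was not called (0.684 and 1.12, difference -0.30, adjusted p = 0.237, limma). Sox2 (0.0162 and 0.0557) and Pax6 (0.00942 and 0.0525) also averaged lower with EMB, Msi1 was at 0.297 and 0.279, and Sox1 was at 0. The 4 skeletal muscle markers summed to 33.9 to 36.7 against 2.04 to 2.41, nearly all Tnnt3, a troponin (34.9 and 2.13), with Myh8 and Ckm at 0.0310 or less on average. The 7 meninges markers overlapped in their sums (1.99 to 4.48 and 1.59 to 4.03), but Ptgds was higher with EMB (1.31 and 0.304 FPKM, difference 0.77, adjusted p = 0.00786) and Aldh1a2 lower (0.145 and 0.814, -0.63, adjusted p = 0.0451). The 6 glia markers summed to 3.35 to 5.49 and 1.24 to 9.67, and of these Sox10 was higher with EMB (1.46 and 0.146, difference 1.10, adjusted p = 4.7e-04).

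Skeletal markers went both ways with EMB. The 5 osteoblast markers summed to 2879 to 3863 in EMB+ and 6672 to 7149 in EMB- libraries, a sum made mostly of Col1a1 (-1.28, adjusted p = 4.0e-05, limma). The osteoblast factors Runx2 and Sp7, of the same list, were higher with EMB (1.99, adjusted p = 1.1e-09, and 2.02, adjusted p = 1.0e-08). The 5 chondrocyte markers summed to 40825 to 42811 and 50067 to 53037, mostly Col2a1 (-0.34, adjusted p = 0.0304), while Acan (1.21), Matn1 (1.86), Col9a1 (0.69) and Sox9 (0.67) of that list were all higher with EMB. The part of these shifts in the Zic difference was not tested.

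In vertebral GFP- cells neither gene passed the test for EMB. Zic1 differed by 0.03 (SE 0.14, limma adjusted p = 0.880) and Zic4 by -0.09 (SE 0.13, adjusted p = 0.567), at levels near 0. In long bone both were at 0 on each side. Whether the EMB difference itself differs between GFP+ and GFP- cells was not tested.

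Zic5, the partner of Zic2, was low but present in the GFP+ lineage. Its level was 0.348, 0.384, 0.376 and 0.332 FPKM in GFP+ EMB+ cells and 0.130, 0.0433, 0.433 and 0.0351 in GFP+ EMB- cells. It was 0, 0, 0 and 0.199 in GFP- EMB+, 0, 0.00963, 0 and 0.110 in GFP- EMB-, 0.0827, 0.0794, 0.0205 and 0.0448 in long bone EMB+, and 0.00941, 0.0281, 0.124 and 0.0245 in long bone EMB- cells. The GFP+ EMB+ libraries lay close together (about 36 to 38 fragments each) and above all GFP- and long bone libraries, whereas the GFP+ EMB- libraries overlapped every group. The mean EMB+ level was 2.24 times the EMB- level, but GFP+ EMB- replicate 3 exceeded all EMB+ libraries and the exact permutation test gave p = 0.143. Zic5 did not pass the filter. In the limma fit without a filter (17614 genes), it was higher in EMB+ cells by 0.24 (SE 0.08, adjusted p = 0.0195), a call that the permutation test does not share.

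Zic2, a factor of forebrain development, was at the limit of detection. It was 0, 0.0419, 0.122 and 0.0340 FPKM in GFP+ EMB+ cells and 0, 0, 0.142 and 0.0617 in GFP+ EMB- cells. All 8 GFP- libraries were listed at 0, where 3 fragments would have given 0.0537 and 0.0540 FPKM, and 1 library of each long bone group was above 0 (0.0599 and 0.0357). No library held more than about 8 fragments. The 4 libraries of each group summed to about 10 and 12 fragments in GFP+ EMB+ and EMB- cells. The sums were 0 in both GFP- groups and about 4 and 2 in long bone EMB+ and EMB- cells. With so few fragments, differences between groups are uncertain.

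Zic4 held most of the summed FPKM of the 4 Zic genes in 6 of the 8 GFP+ libraries. Its share was 76.2%, 59.5%, 75.2% and 71.3% in EMB+ replicates 1 to 4 and 75.8%, 47.4%, 42.8% and 57.5% in EMB- replicates. The share of Zic1 was 19.4%, 34.4%, 19.0% and 24.2% in EMB+ and 17.6%, 50%, 40.5% and 37.5% in EMB- cells. Zic5 held 4.07% to 5.53% in EMB+ and 1.80% to 12.6% in EMB- cells, and Zic2 at most 4.14%. The ranges overlapped for each gene.

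The mean share of Zic4 was 70.5% ± 7.67 (SD, n = 4) in EMB+ and 55.9% ± 14.6 in EMB- cells, a difference of 14.7 percentage points (exact permutation p = 0.143, 0.300 with Benjamini-Hochberg adjustment over 3 shares). That of Zic1 was 24.2% ± 7.18 and 36.4% ± 13.6, a difference of -12.2 points (exact permutation p = 0.20, adjusted 0.300), and that of Zic5 4.62% ± 0.631 and 5.90% ± 4.95, a difference of -1.28 points (exact permutation p = 0.800). The makeup of Zic expression was thus not shown to differ by EMB beyond the spread of the libraries.

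**Figure D3:**
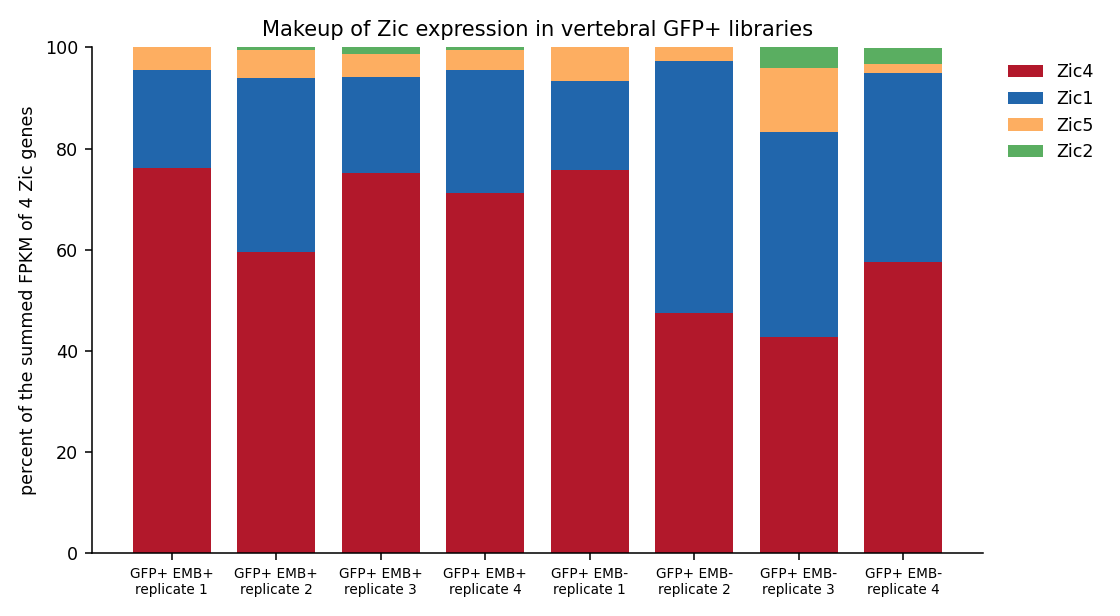
Share of each Zic gene in the summed FPKM of the 4 Zic genes (y axis, percent) in each of the 8 vertebral GFP+ libraries (x axis). Zic4 takes 59.5% to 76.2% in EMB+ and 42.8% to 75.8% in EMB- libraries, and the 2 ranges overlap.

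Nkx6-1 was above 0 in all 24 libraries and had another order of groups. In vertebral GFP+ EMB+ cells it was 9.42, 10.1, 11.1 and 12.5 FPKM, and in GFP+ EMB- cells 4.02, 4.45, 5.51 and 5.13. In GFP- EMB+ cells it was 1.78, 2.64, 2.54 and 1.76, and in GFP- EMB- cells 0.759, 0.720, 0.533 and 0.948. In long bone it was 3.96, 3.96, 5.14 and 3.43 in EMB+ and 6.24, 4.31, 6.26 and 6.62 in EMB- cells. The highest group mean was that of GFP+ EMB+ (10.8 ± 1.34), followed by long bone EMB- (5.86 ± 1.05), GFP+ EMB- (4.78 ± 0.669), long bone EMB+ (4.12 ± 0.721), GFP- EMB+ (2.18 ± 0.474) and GFP- EMB- (0.740 ± 0.170, SD, n = 4 each). Long bone EMB- overlaps with GFP+ EMB-, and GFP+ EMB- with long bone EMB+. The GFP+ EMB+ group and both GFP- groups overlap with no other group. About 35 to 951 fragments stood behind each value.

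By lineage, Nkx6-1 was 4.94 times as high in GFP+ as in GFP- cells among EMB+ cells (log2 difference 1.89, SE 0.15) and 6.46 times among EMB- cells (1.73, SE 0.15). By EMB it was higher in EMB+ cells of both vertebral lineages, by 1.03 in GFP+ and 0.86 in GFP- cells, and differed by -0.42 in long bone, where the groups overlap (SE 0.15 each). After median-ratio scaling these 3 differences were 0.69, 0.64 and -0.48. Against long bone, GFP+ cells were higher by 1.20 among EMB+ cells. Among EMB- cells the difference was -0.24 (SE 0.15) as deposited, 0.02 after median-ratio scaling and -0.18 without the outlying long bone EMB- replicate 4, so it has no direction that holds. GFP- cells differed from long bone by -0.69 among EMB+ and by -1.97 among EMB- cells, with no overlap. The GFP+ group is shared between the lineage and the site comparison, as is the long bone group between both site comparisons.

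**Figure D4:**
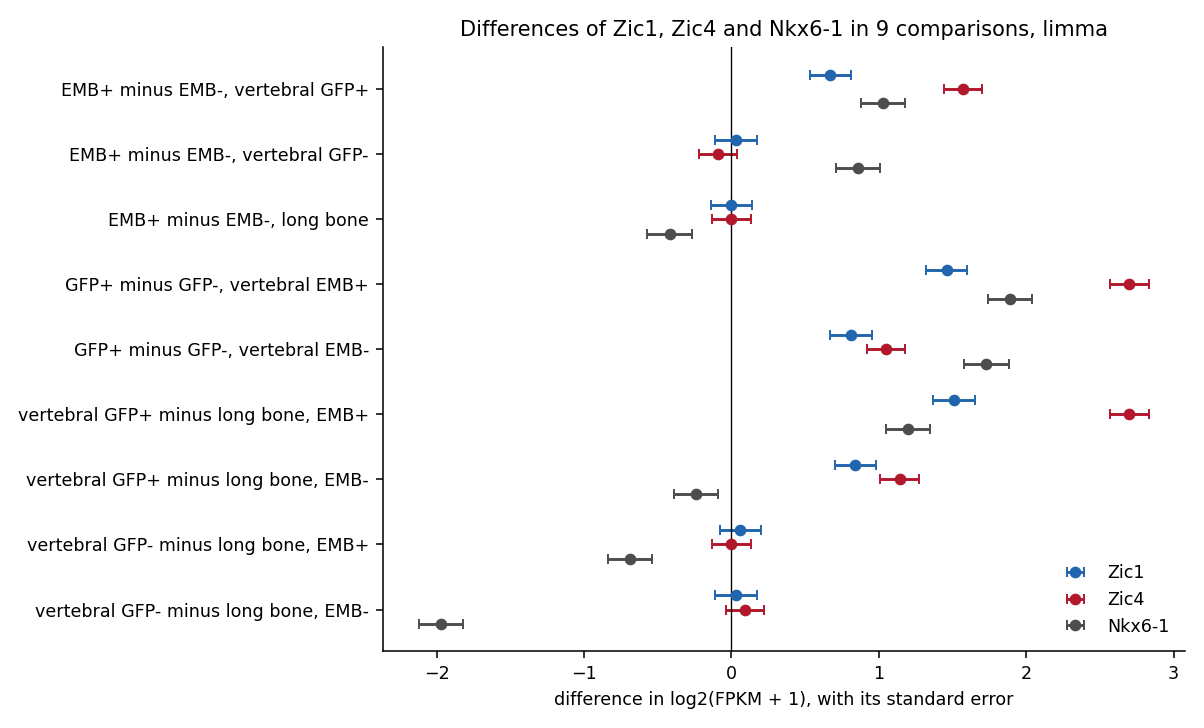
Difference in log2(FPKM + 1) (x axis) with its standard error for Zic1, Zic4 and Nkx6-1 in 9 comparisons (y axis), from limma. Zic1 and Zic4 lie near 0 wherever GFP+ cells are not compared, while Nkx6-1 ranges from -1.97 to 1.89 and is below 0 in the comparisons of GFP- cells with long bone.

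The genes closest to each member were found by the overlap of their profiles, each group mean taken as a share of the 6 group means, so that 100% means equal profiles. These are descriptions over 6 groups made of the same 24 libraries. Zic1 was closest to Zic4 and Zic4 to Zic1, out of 11553 genes compared, with an overlap of 86.3% against a median of 33.7% and 32.2% over all genes. Zic1 had 67.8% of its summed group means in the GFP+ EMB+ and 29.9% in the GFP+ EMB- group, and Zic4 had 81.2% and 17.8%. The genes next to the pair were Lrtm2 (70.9% with Zic1 and 69.7% with Zic4), Rspo4, a secreted enhancer of Wnt signalling (70.2% and 68.7%), and Serpina1d, a protease inhibitor whose value is uncertain because of near-identical copies (68.6% and 67.4%). They differed from the pair in their level in GFP- EMB+ cells, which held 25.1% of the summed means of Lrtm2, 27.3% of Rspo4 and 14.5% of Serpina1d, against 1.50% of Zic1.

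Zic5 was closest to Upk1b, a uroplakin (84.5%), Cntfr, the receptor subunit for ciliary neurotrophic factor (83.1%), Shisa8 (81.7%) and Nkx6-1 (79.0%), against a median of 57.3%. Nkx6-1 was closest to Slc16a11, of the monocarboxylate transporter family (89.2%), Slc47a1, an exporter of organic cations (86.9%), Gjb2, connexin 26 (86.3%), and Slc10a6, a transporter of steroid sulphates (85.7%), where the median over all genes was already 72.4%. Slc47a1 also stood on the list of meninges markers, and it averaged 1.07 and 0.929 FPKM in GFP+ against 0.144 and 0.132 in GFP- cells. In the GFP+ EMB+ and EMB- groups, the other meninges markers averaged 1.31 and 0.304 FPKM (Ptgds), 0.624 and 0.483 (Crabp2), 0.145 and 0.814 (Aldh1a2), 0.118 and 0.0568 (Cldn11), 0.0204 and 0.185 (Slc6a13), and 0.0258 and 0 (Slc22a6). In the matching GFP- groups Ptgds averaged 0.803 and 0.154, Crabp2 0.664 and 1.41, and Aldh1a2 0.139 and 0.687. Cldn11 averaged 0.0318 and 0.149 there, Slc6a13 0.0165 and 0.310, and Slc22a6 0.00520 and 0. Crabp2 was thus higher without GFP in both EMB classes, as were Cldn11 and Slc6a13 among EMB- cells. With group medians in place of means the pair of Zic1 and Zic4 kept its rank (86.6%), but 2 of the 4 nearest genes remained for each of them. The genes nearest to Nkx6-1 changed entirely, 0 of 4 remaining, and 1 of 4 remained for Zic5.

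**Figure D5:**
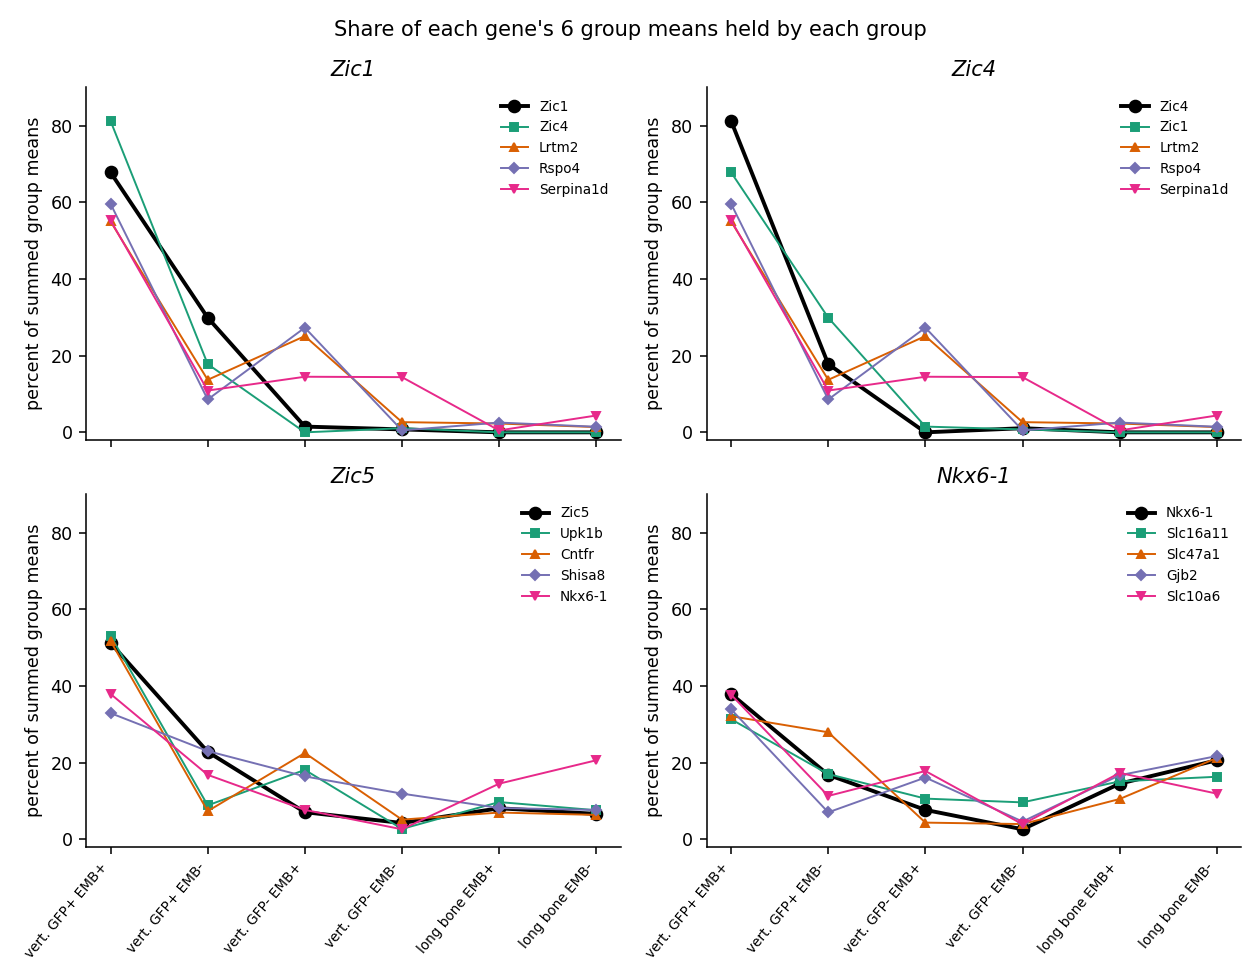
Share of the 6 summed group means (y axis, percent) held by each group (x axis) for Zic1, Zic4, Zic5 and Nkx6-1 (black) and the 4 genes closest to each (coloured). Zic1 and Zic4 are at or below 1.50% in all groups but the 2 GFP+ groups, whereas Lrtm2 and Rspo4 have a further 25.1% and 27.3% in GFP- EMB+ cells.

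The 3 nearest genes on each side of the loci were followed as well. Of these 18 genes 13 passed the filter, and 0 were called by limma's adjusted p between GFP+ and GFP- cells of either EMB class, with 1 and 3 at an unadjusted p under 0.05. Median-ratio scaling called 1 lower among EMB- cells. Over all genes 0.391% were higher and 1.71% lower among EMB+ cells, and 2.25% and 6.22% among EMB- cells, and the median over the 13 was 0.06 and -0.01 against -0.02 in both over all genes. With so few called among all genes, a count of 0 says nothing particular about the neighbours. Zic1 and Zic4 lie in a wide interval: the nearest genes of the file are Plscr5 (803.6 kb away, at most 0.0461 FPKM on average) and Tbc1d2b (1087 kb, 5.61 to 8.08). Cds1, an enzyme of phospholipid synthesis 100.1 kb from Nkx6-1, averaged 3.13 and 0.477 FPKM in GFP+ EMB+ and EMB- cells and 3.26 and 0.427 in the matching GFP- groups. It thus varied with EMB (log2 difference 1.50, SE 0.18, adjusted p = 3.3e-07) and not detectably with GFP (-0.02 and 0.04, SE 0.18 each). By EMB in GFP+ cells 6 of the 13 were higher and 1, Arhgap24, lower (-1.69, SE 0.18, adjusted p = 4.3e-08), with a median of 0.36 against 0.32 over all genes. Of all genes 42.1% were higher and 7.85% lower in that comparison, close to the shares of the neighbours. After median-ratio scaling 2 of the 13 were higher and 1 lower, against 1523 and 1725 of all 11767 genes.

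The Gli and Glis genes, relatives of Zic that carry similar zinc fingers, were all tested (6 of 6). By GFP 0 were called by limma in either EMB class, with 1 and 1 at an unadjusted p under 0.05 and medians of 0.25 and 0.12 against -0.02 over all genes. Glis1 was lower in GFP+ cells with EMB, at 2.29 against 21.1 FPKM (-2.78, SE 0.20, adjusted p = 6.8e-11). Gli1, a readout of Hedgehog signalling, rose by 0.67 (SE 0.16, adjusted p = 1.05e-03), a call lost after median-ratio scaling (adjusted p = 0.116). Against long bone, Glis1 was higher in GFP+ EMB- cells by 3.14 (SE 0.20, adjusted p = 3.3e-12) at 21.1 against 1.59 FPKM, and Glis2 was lower (-0.58, adjusted p = 0.0245, lost in 5 of 13 alternative fits). There 7.40% of all genes were higher and 40.4% lower, while among EMB+ cells, where Glis2 alone was called (-0.60, SE 0.21, adjusted p = 0.0413, lost in 7 of 13 alternative fits), 8.66% were higher and 12.9% lower. The median of the 6 genes was -0.05 by EMB, and -0.16 and -0.26 against long bone, where all genes had 0.32, -0.01 and -0.27.

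Of the 12 Hedgehog pathway genes 11 were tested, and they differed by EMB in both directions, 4 higher and 3 lower in GFP+ EMB+ cells (median 0.27 against 0.32 over all genes, of which 42.1% were higher and 7.85% lower). Ihh, the ligand of growth cartilage, was at 132.5 FPKM with EMB and 9.49 without (3.71, SE 0.20, adjusted p = 2.7e-13). Ptch1, the receptor and a target of the pathway, rose by 2.22 (SE 0.18, adjusted p = 3.7e-10) and Disp1, which releases the ligand, by 1.24 (SE 0.16). Hhip, which binds the ligand, rose by 0.80, a call lost after median-ratio scaling (adjusted p = 0.0815). The coreceptors fell: Gas1 by 3.76 (SE 0.18, adjusted p = 3.2e-14), Boc by 1.23 and Cdon by 1.33. By GFP 1 gene was higher in each EMB class, where 0.391% and 2.25% of all genes were, with medians of -0.01 and -0.02. Hhip was higher in GFP+ EMB+ cells (46.1 against 27.9 FPKM, difference 0.71, SE 0.17, adjusted p = 0.0188), a call lost when any of 5 of the 8 libraries was left out (adjusted p up to 0.0730). Ihh was higher in GFP+ EMB- cells (9.49 against 4.80 FPKM, 0.86, SE 0.20, adjusted p = 5.8e-03). Against long bone 3 were higher and 3 lower among EMB+ cells (median 0.06) and 4 and 3 among EMB- cells (median -0.03). Of all genes 8.66% and 12.9%, and 7.40% and 40.4%, were higher and lower there. After median-ratio scaling the latter counts were 5 and 1, and without long bone EMB- replicate 4 they were 3 and 5.

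Of 13 other Nkx genes only Nkx3-2 and Nkx6-2 passed the filter, and neither was called by GFP (limma, 0 and 0 at an unadjusted p under 0.05). Both were higher with EMB in GFP+ cells (median 0.91), where 42.1% of all genes were. Against long bone 2 were higher among EMB+ cells and 1 among EMB- cells (8.66% and 7.40% of all genes). The call of Nkx6-2 among EMB+ cells was lost in 9 of 13 alternative fits, which leaves 1. Nkx3-2, which acts in the sclerotome and in cartilage, averaged 47.6 and 20.9 FPKM in GFP+ EMB+ and EMB- cells, 40.1 and 24.6 in the GFP- groups and 19.3 and 6.80 in long bone. It was higher in EMB+ cells (1.14, SE 0.12, adjusted p = 6.5e-08) and against long bone (1.26 and 1.50, SE 0.12 each, adjusted p = 2.5e-08 and 3.2e-10). Nkx6-2, the closest relative of Nkx6-1, averaged 0.683 FPKM in EMB+ cells with GFP and 1.02 in those without. Its difference by GFP among EMB+ cells was -0.28 (SE 0.17, adjusted p = 0.811), where that of Nkx6-1 was 1.89. With EMB it rose by 0.68 (SE 0.17, adjusted p = 2.24e-03).

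Of the sclerotome and somite factors, 8 of 11 in the file were tested. By site 6 of 8 were called in each EMB class. By EMB in GFP+ cells 7 of 8 were called, 3 higher and 4 lower. Of all genes 42.1% were higher and 7.85% lower in that comparison. By GFP 0 were called by limma among EMB+ cells (2 at an unadjusted p under 0.05). Among EMB- cells only Meox1 was called (0.53, SE 0.15, adjusted p = 0.0302). That call was lost with a pseudocount of 0.1 and when any of 5 libraries was left out. With GFP 0.391% of all genes were higher and 1.71% lower among EMB+ cells, and 2.25% and 6.22% among EMB- cells. Against long bone 5 were higher and 1 lower in both EMB classes, with medians of 0.69 and 0.79 against -0.01 and -0.27 over all genes. There 8.66% of all genes were higher and 12.9% lower among EMB+ cells, and 7.40% and 40.4% among EMB- cells. Among EMB+ cells the call of Foxc1 (0.43, adjusted p = 0.0491, limma) was lost in 9 of 13 alternative fits. Median-ratio scaling left 4 factors higher there. Pax1, a sclerotome factor, was higher by 4.89 (76.4 against 1.64 FPKM, SE 0.15, adjusted p = 3.7e-18) among EMB+ cells and by 4.85 among EMB- cells. Uncx, which patterns the vertebral pedicles, was higher by 2.67 and 1.29 and was at 0 in both long bone groups, and Pax9 was higher by 1.22 and 2.30. Tbx18 was lower (-1.60 and -0.92). In GFP- EMB+ and EMB- cells, where Zic1 and Zic4 were near 0, Pax1 averaged 61.9 and 149.9 FPKM and Uncx 6.73 and 1.31. Their GFP differences were 0.30 and -0.20 (SE 0.15) for Pax1 and -0.27 and 0.08 (SE 0.13) for Uncx. By EMB in GFP+ cells the median of the 8 was -0.43, against 0.32 over all genes. Uncx (1.39), Foxc1 (1.02) and Sox9 (0.67, lost after median-ratio scaling) rose. Meox1 (-1.89), Pax9 (-1.39), Pax1 (-0.76) and Tbx18 (-0.67, lost without GFP+ EMB+ replicate 3, adjusted p = 0.0521) fell.

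Of 9 dermomyotome and myogenic factors 5 were tested, and 2 were higher in GFP+ than GFP- cells among EMB- cells, with medians of 0.41 there and 0.34 among EMB+ cells, where 0 were called by limma and 3 had an unadjusted p under 0.05. Of all genes 2.25% were higher with GFP among EMB- cells and 0.391% among EMB+ cells. After median-ratio scaling 1 was called among EMB+ cells. Myog, myogenin, was higher by 1.64 (2.79 against 0.0214 FPKM, SE 0.34, adjusted p = 1.41e-03), a call lost with a pseudocount of 5 and with only the groups compared in the fit (adjusted p up to 0.0922), and Eya2 by 0.78 (adjusted p = 0.0277), lost in 7 of 14 alternative fits. By EMB in GFP+ cells 3 were higher and 2 lower, where 42.1% and 7.85% of all genes were. Of these 5 calls 3 held in each of 14 alternative fits, and the other two, Myod1 among them, were lost in 9 (Myod1) and 3. Against long bone 0 were higher in either EMB class, and 0 and 3 were lower (2 and 3 at an unadjusted p under 0.05 by limma), where 12.9% and 40.4% of all genes were lower. The call of Eya1 was lost in 10 of 13 alternative fits. Pax3 and Pax7, which mark the dermomyotome, averaged at most 0.198 FPKM in any group.

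The neural tube partners of Zic and Nkx6-1 were mostly silent: 3 of 12 genes, Irx3, Msx1 and Msx2, were tested, and 0 were called by limma between GFP+ and GFP- cells or, in GFP+ cells, by EMB (0, 0 and 1 at an unadjusted p under 0.05). Against long bone Msx2 (-1.19) and Irx3 (-0.62) were lower among EMB+ cells, and among EMB- cells Msx2 was lower (-1.04) and Irx3 higher (0.42, lost in 9 of 13 alternative fits). In these comparisons 8.66% of all genes were higher and 12.9% lower among EMB+ cells, and 7.40% and 40.4% among EMB- cells. Dbx1 and Atoh1 were at 0 in every group. Of the others, Gdf7 averaged at most 0.727 and Wnt1 at most 0.569 FPKM, both in long bone EMB- cells. Olig2 averaged at most 0.545 FPKM, Lmx1a at most 0.465, Dbx2 at most 0.156, Pax6 at most 0.0876 and Wnt3a at most 0.0183.

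The sums of several marker lists differed by GFP, most of them higher in GFP- cells. The 7 notochord and nucleus pulposus markers summed to 57.5 to 77.6 FPKM in GFP+ EMB+ and 373.2 to 636.7 in GFP- EMB+ libraries, and to 46.4 to 65.1 and 173.6 to 281.6 in the EMB- groups. Most of each of these sums was Car3 (52.9 and 391.4 FPKM in the EMB+ groups), which was also high in long bone EMB+ cells (346.7). T, brachyury, averaged 0.0439 and 12.1 FPKM in the EMB+ and 0.491 and 4.78 in the EMB- groups, and Noto was at 0. In the EMB+ groups Krt8 (0.436 and 44.8) and Krt19 (0.425 and 32.5) were also higher without GFP, while Foxa2 was at 15.3 and 16.9. The 5 erythroid markers summed to 3589 to 5869 FPKM in GFP- EMB- and 116.3 to 416.8 in GFP+ EMB- libraries, and to 9509 to 20543 in long bone EMB- libraries. The 6 leukocyte markers summed to 263.3 to 1697 FPKM in GFP- EMB+ against 17.6 to 107.8 in GFP+ EMB+ libraries, and the 6 glia markers to 11.7 to 128.9 in GFP- EMB- against 1.24 to 9.67 in GFP+ EMB- libraries. The leukocyte sum was mostly S100a8 (763.0 and 49.8 FPKM on average) and Mpo (130.6 and 3.29). Of that list Cd74 alone averaged lower in GFP- EMB+ cells (4.25 and 5.35). The 6 neural progenitor markers summed to 31.4 to 41.6 FPKM in GFP- EMB+ against 5.91 to 7.31 in GFP+ EMB+ libraries, mostly Fabp7 (-2.43, adjusted p = 4.4e-08, limma). The osteoblast markers went the other way among EMB- cells, with 6672 to 7149 FPKM in GFP+ and 3717 to 4493 in GFP- libraries, where Runx2 (1.10, adjusted p = 4.3e-05), Bglap (1.79, adjusted p = 4.8e-04), Sp7 (0.81, adjusted p = 0.00763) and Col1a1 (0.73, adjusted p = 0.0356) were higher with GFP. The 4 endothelial markers summed to at most 5.62 FPKM in any library. The part of these cells in the GFP differences of Nkx6-1, Hhip and Ihh was not tested.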

How the data were processed

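RNA of 24 sorted samples, 4 in each of 6 groups, was amplified with a SMART-Seq v4 kit and made into libraries with Nextera XT, per the labels' protocols; neither marks strand. Per the submitters' processing notes, Cufflinks 2.1.1, STAR 2.5.2 and bcl2fastq 2.19 were used with GRCm38. The values are FPKM as deposited by the authors, per the file headers. Of 22053 entries, 46 repeated identifiers, 56 repeated symbols and 3 genes with failed estimates were left out. An exact 0 can be a failed estimate. Depth was estimated from the smallest FPKM step of 3937 genes with a single transcript. The 4 vertebral GFP- EMB+ libraries were grouped by cell type label, since their titles differ.

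Genes that reached 1 FPKM in 4 libraries, 11767 in all, were tested by limma 3.58.1 (R 4.3.3) on log2(FPKM + 1) (1 fit over 6 groups, trend and robust moderation, two-sided, Benjamini-Hochberg at 0.05), and the script was tested on simulated data. Exact permutation tests used scipy 1.17.1. Alternatives were pseudocounts of 0.1 and 5, no filter, median-ratio scaling over 4841 genes, only the compared groups, the replicate number as a block, and each library left out.

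The members and gene lists were chosen with earlier results of these data known. Named were all members, for members with a group mean of 0.2 FPKM or more the 4 genes with the most similar profile (among genes with a group mean of 1 or more, without predicted genes), the 3 nearest genes on each side, and called genes of the lists, up to 4 by adjusted p or all where a count was 5 or fewer. Marker genes given with values were chosen after their values were seen. Foxc2, Tubb3, Ahsp and Acta1 were not matched by symbol and are not analysed here, and some items are not reported here. Replicate numbers in the titles pair GFP+ with GFP- libraries, whose deviations from the group means correlated at 0.169 to 0.337 among EMB+ and 0.130 to 0.292 among EMB- cells, and GFP- EMB+ with GFP- EMB- libraries (0.135 to 0.236). GFP+ EMB+ and EMB- libraries correlated at 0.0971 to 0.279 (3 of 4 pairs above 0.1) and were not taken as paired. Long bone EMB+ titles carry a single number.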

Additional observations from a re-analysis of the deposited data

Results flagged for a closer look

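In 23 groups of 4 libraries whose values of a member spread by more than 1 fragment, a single library was checked for standing apart (by the gap to the nearest library as a share of the range, Dixon's test). Here 7 were flagged, 6 of them at under 0.3 FPKM. Chance flags about 1 in 20 groups of normally distributed values. A group with a single library above 0 is always flagged, so the count of 7 cannot be set against that rate. Zic4 was 0.296 FPKM in vertebral GFP- EMB- replicate 2 and 0 in the other 3 libraries of that group. Zic5 was 0.199 in GFP- EMB+ replicate 4 against 0, 0.110 in GFP- EMB- replicate 4 against at most 0.00963, and 0.124 in long bone EMB- replicate 3 against at most 0.0281. Zic2 was 0.0599 in long bone EMB+ replicate 4 and 0.0357 in long bone EMB- replicate 4, each against 0. Nkx6-1 was 4.31 FPKM in long bone EMB- replicate 2 against 6.24 or more in the other 3.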

How the results depend on the processing

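The EMB differences of Zic1 and Zic4 in GFP+ cells kept their direction and their call in all 14 alternative fits. Zic1 was 1.19 and 0.24 with pseudocounts of 0.1 and 5, 0.54 to 0.81 with each library left out, and adjusted p was at most 0.0156. Zic4 was 2.12 and 0.76, and 1.47 to 1.68, with an adjusted p of at most 1.2e-04. With the replicate number as a block, limma gave 0.67 (adjusted p = 2.6e-04) and 1.57 (7.2e-09), and the exact sign-flip test over pairs of the shares gave p = 0.250, 0.125 and 0.875 for Zic1, Zic4 and Zic5. The block changed no limma call of Zic1 or Zic4. With 4 pairs, 0.125 is the smallest p the sign-flip test can give, so that test could not have called any share. The Zic4 share, which gave this smallest p, was higher in the EMB+ library of each pair. Whether the shares differ by EMB within pairs is thus not decided by the sign-flip test. With each library left out, the share difference ranged from -18.4 to -7.63 points for Zic1, 10.3 to 21.3 for Zic4 and -2.65 to 0.959 for Zic5, whose sign turned without GFP+ EMB- replicate 3 (0.959).

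Of 281 recomputed differences that were described without a test, 33 moved by more than the spread, 31 of them with another pseudocount, and 1 turned: Nkx6-1, GFP+ minus long bone EMB-, 0.02 with median-ratio scaling. The cause was not tested. Of 83 calls of list genes and neighbours, 53 held in every fit, 30 were lost in some and 0 turned. Median-ratio scaling changed GFP+ against long bone EMB- over all genes from 871 higher and 4750 lower to 2008 and 2804. Genes higher with GFP numbered 46 among EMB+ cells, 81 with only the compared groups, and 21, 30 and 29 without GFP+ EMB+ replicate 2 or GFP- EMB+ replicates 1 or 3. Among EMB- cells they numbered 265, 170 with a pseudocount of 5 and 435 with only the compared groups. Depth limits Zic2 and Zic5, at about 48 fragments or fewer per library.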
